A study of Mus musculus with 6 samples.

Results

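DNA replication starts at origins that are licensed ahead of S phase and then fire to form moving forks. The genes described here encode that machinery: 44 mouse genes named for their roles in origin licensing, the replicative helicase, the DNA polymerases, the sliding clamp and other steps at the fork. A gene was taken where the deposited table has a row of its name with a mean of at least 10 over the 6 samples. All 44 met that rule, of 45706 genes in the table and of 15556 genes that passed the same minimum and were tested. By role they comprise 9 licensing genes, 12 helicase genes, 8 polymerase genes, 6 genes of the clamp and its loader, and 9 other fork genes.

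The samples are poly(A) RNA of embryonic mouse hearts of strain C57BL6/J. The double knockouts (DKO, n = 3) are RBPMS flox/flox and RBPMS2 flox/flox and carry an aMyHC Cre. Their littermate controls (Ctrl, n = 3) have the same floxed alleles of both genes and no Cre in the genotype label, so that transgene and deletion are compared together. The alpha-myosin heavy chain promoter drives Cre in cardiomyocytes, so the other cells of the heart keep both genes. RBPMS and RBPMS2 are RNA-binding proteins. The labels give neither the embryonic day nor whether a sample was 1 heart or a pool, and the p-values measure the spread between these samples only.

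As background, the origin recognition complex (ORC) marks origins, and CDC6 and CDT1 then load the ring of MCM2 to MCM7 around DNA in G1, a step that geminin blocks once S phase has begun. Kinases turn the loaded ring into an active helicase by adding CDC45 and the GINS complex. DNA polymerase alpha with its primase starts each strand, polymerases epsilon and delta extend it, and the PCNA clamp, loaded by replication factor C, holds them on DNA. Many of these genes are known targets of E2F transcription factors in cycling cells, and fetal cardiomyocytes still divide.

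The table holds numbers of reads per gene after scaling by sample and rounding, and the totals per sample were close, at 17861435 to 18439201. Estimated depths before that division were 14759077 to 25837261 reads in the DKO samples and 12960709 to 21331727 in the Ctrl samples. Rbpms was at 1134, 1117 and 852 in DKO samples, against 6998, 3868 and 7656 in Ctrl samples, and Rbpms2 was at 879, 1003 and 911 in DKO samples, against 1711, 1362 and 1998 in Ctrl samples. By their sex-linked transcripts the DKO samples were 2 male and 1 female, and the Ctrl samples were 1 male and 2 female. Every pair of replicates of 1 group differed beyond sampling noise.

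The comparison asked how replication genes of the embryonic heart differed with a cardiomyocyte-specific knockout of both genes. In the DKO hearts 30 of the 44 genes fell, 0 rose and 14 did not pass the test (limma on log2(value + 1), Benjamini-Hochberg adjusted p below 0.05 over all genes tested). Over all genes tested, 17.2% passed by the same rule, 8.56% lower and 8.61% higher. Those are 1331 lower and 1339 higher genes, and with values scaled to equal totals 1091 were lower and 1569 higher. No gene of the 44 was higher at an unadjusted p under 0.05 in limma either, and limma-voom also called 0 higher. The median log2 fold change, DKO over Ctrl, was -0.45 over the 44 genes and 0.00 over all genes tested, whose central range, the 5th to the 95th percentile, was -0.52 to 0.67. The changes ran from -0.77 for Cdt1, the licensing factor, to 0.05 for Pola2, the second subunit of polymerase alpha. All 3 DKO samples lay below all 3 Ctrl samples in 35 of the 44 genes, where that held for 17.9% of all genes tested. They lay above all controls in 0 of the 44 genes and in 17.5% of all genes tested.

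**Figure D1:**
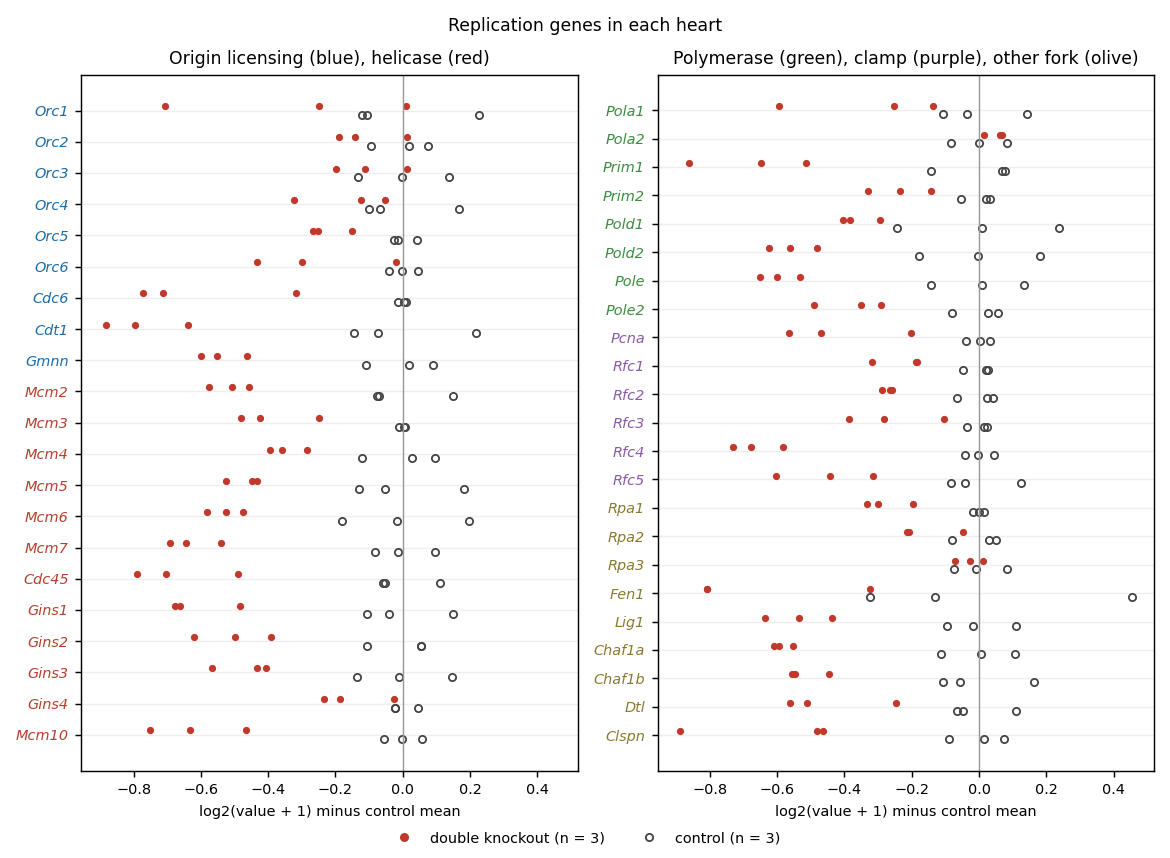
Value of each gene in each sample, as log2(value + 1) minus the mean of the 3 controls (x axis), with genes down the page and the DKO points drawn filled above the open Ctrl points. The groups are separate for most genes, and Orc1 to Orc4, Orc6, Pola2, Rpa2, Rpa3 and Fen1 are the 9 where they touch or overlap.

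Across the 44 genes, the median difference from the control mean on the log2 scale was -0.33, -0.49 and -0.48 in DKO replicates 1, 2 and 3, against -0.02, -0.05 and 0.03 in Ctrl replicates 1, 2 and 3. All DKO samples were thus lower, and DKO replicate 1 was the nearest to the controls. It held the highest value of its group in 33 of the 44 genes. Leaving out each sample in turn, 20 to 29 of the 44 genes fell, and the lowest count came without DKO replicate 2. Of the 30 that fell, 20 did so in each of 15 alternative settings, which include each left-out sample.

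Markers of other cell types were read in the same samples. Of 8 macrophage markers 6 rose, with summed values of 1898 to 2868 in DKO samples and 1290 to 1465 in Ctrl samples. Of 10 endothelial markers 6 rose, with sums of 26165 to 29098 in DKO samples and 22131 to 22702 in Ctrl samples. Of 8 fibroblast markers 4 rose, with sums of 120414 to 149891 in DKO samples and 92236 to 107285 in Ctrl samples, and of 8 epicardial markers 1 rose, with sums of 5184 to 5901 in DKO samples and 4351 to 4856 in Ctrl samples, a share of markers near the 8.61% of all genes tested. Of 10 cardiomyocyte markers 1 fell, with sums of 624470 to 665501 in DKO samples and 690667 to 727171 in Ctrl samples, and 1 of 10 is likewise near the 8.56% of all genes tested. Cardiomyocyte transcripts were abundant in every sample. Of 9 erythroid markers 0 passed in limma or limma-voom, with sums of 30761 to 37941 in DKO samples and 38040 to 66307 in Ctrl samples. In limma 6 of these 9 were at an unadjusted p under 0.05, 5 of them lower and 1, the embryonic globin gene Hbb-y, higher. All genes tested were not counted at that looser threshold, so the 6 are not read as a result. Among the cardiomyocyte markers Tnnt2, Actn2 and Ttn also lay under it, all lower, and the others did not. The top of the erythroid range in Ctrl samples came from Ctrl replicate 3. Hba-a1 was at 7848, 8216 and 13295 in Ctrl replicates 1, 2 and 3, and Alas2 at 616, 600 and 1096. No marker on these lists was at 0 in any sample. The part of these differences in the fall of the replication genes was not tested, and in bulk RNA fewer cells of a type and less RNA per cell cannot be told apart.

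**Figure D2:**
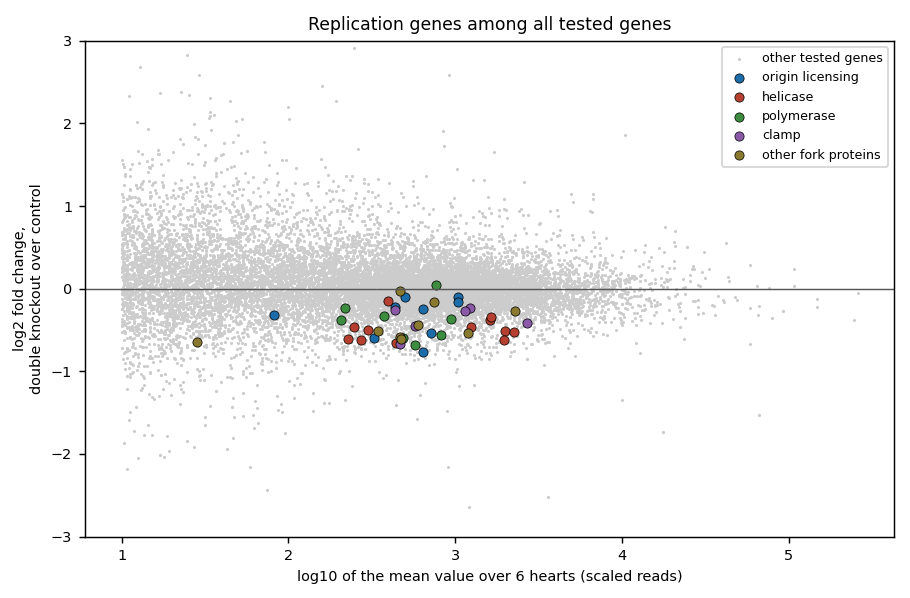
Log2 fold change, DKO over Ctrl (y axis), against the log10 of the mean value (x axis) for the genes tested, in grey (12 genes lie outside the plotted range), with the 44 replication genes in colour by role. The replication genes lie mostly between -0.77 and -0.23, below the middle of the grey cloud at 0.00, and Pola2 at 0.05 is the highest of them.

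The start-site sequences of these genes were searched for words that E2F factors are known to bind. The genes were chosen as replication machinery, much of it known E2F targets, so a share above that of all genes follows from the choice. A link between the words and the change in DKO samples was not tested. RefSeq start-site windows on GRCm38.p6, 250 bases before to 50 after each start, were found for 36 of the 44 genes and not for Gmnn, Mcm4, Gins1, Gins2, Gins4, Prim2, Pole and Rfc2. Some genes have more than 1 window, and a gene was counted if any of its windows held a word. The 36 genes have 44 windows in all, and the end of the window matched an annotated transcript of the gene in 36 of those 44. The words were TTTCCCGC, TTTGGCGC, TTTCGCGC and TTTGCCGC, on both strands, with overlapping matches counted. At least 1 word was found in 12 of 24 genes that fell (50%), in 4 of 12 that did not pass the test (33.3%), and in 704 of 27025 genes with a window in the whole RefSeq table (2.6%). Among tested genes with a window it was found in 97 of 1011 that fell (9.59%) and in 487 of 10707 in all (4.55%). Another common promoter word, CCAAT on either strand, was in 66.7% of the replication genes, 66.7% of those that fell, 66.7% of those that did not pass the test and 41.1% of all genes with a window. In 10 replication genes a word lies wholly before the start, 6 of the 24 that fell and 4 of the 12 that did not pass the test. In the other 6 genes, all of which fell, it lies only across or after the start. By RefSeq starts, the higher share among genes that fell thus rests on words across or after the start. That split depends on the start used. By the GENCODE gene coordinates, the words counted as before the start in Mcm7, Cdc6, Gins3, Orc1 and Rfc3 lie inside the gene. Of these, Mcm7, Cdc6 and Gins3 fell, and Orc1 and Rfc3 did not pass the test. No conclusion is therefore drawn from the position of the words. The 80 bases around the word are shown for all 10, in the direction of transcription and with the words in capitals, because both genes that fell and genes that did not pass the test hold them. The first 6 are genes that fell.
Mcm7 (chr5:138172005-138172084, minus strand): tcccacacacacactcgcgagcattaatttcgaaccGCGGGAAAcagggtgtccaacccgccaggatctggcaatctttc
Mcm6 (chr1:128359741-128359820, minus strand): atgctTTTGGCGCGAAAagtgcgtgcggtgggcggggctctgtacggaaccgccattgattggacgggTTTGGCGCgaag
Mcm5 (chr8:75109322-75109401, plus strand): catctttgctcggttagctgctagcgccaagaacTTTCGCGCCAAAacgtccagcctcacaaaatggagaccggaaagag
Cdc6 (chr11:98907977-98908056, plus strand): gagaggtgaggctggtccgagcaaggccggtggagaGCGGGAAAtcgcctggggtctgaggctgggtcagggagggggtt
Gins3 (chr8:95633479-95633558, plus strand): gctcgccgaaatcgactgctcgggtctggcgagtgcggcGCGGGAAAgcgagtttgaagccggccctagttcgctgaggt
Dtl (chr1:191575545-191575624, minus strand): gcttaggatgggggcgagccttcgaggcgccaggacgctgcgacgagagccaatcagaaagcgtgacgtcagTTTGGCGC
The other 4 are genes that did not pass the test.
Orc1 (chr4:108579374-108579453, plus strand): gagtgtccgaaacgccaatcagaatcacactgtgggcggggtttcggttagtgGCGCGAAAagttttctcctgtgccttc
Orc3 (chr4:34614943-34615022, minus strand): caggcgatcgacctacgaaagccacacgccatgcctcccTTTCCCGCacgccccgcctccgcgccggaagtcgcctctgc
Pola1 (chrX:93632250-93632329, minus strand): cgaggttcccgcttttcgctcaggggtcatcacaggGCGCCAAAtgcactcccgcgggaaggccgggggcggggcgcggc
Rfc3 (chr5:151651209-151651288, minus strand): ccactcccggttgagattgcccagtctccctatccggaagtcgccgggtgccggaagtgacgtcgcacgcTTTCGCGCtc
Mcm6 and Mcm5 each have a run in which words on both strands overlap, and Mcm6 has a further word downstream. A match describes the letters in the window and says nothing of whether a factor binds there in these hearts.

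Of the 9 licensing genes 3 fell. None of the 6 ORC genes passed the test, and limma-voom called 0. In limma 2 of the 6 were at an unadjusted p under 0.05. The share of all genes tested at that looser threshold was not taken, so the count is not read as a result. Cdc6, Cdt1 and Gmnn all fell. Orc5 was the ORC gene with separate groups, at 397, 426 and 393 in DKO samples, against 464, 468 and 487 in Ctrl samples (log2 fold change -0.22, SE 0.08, limma adjusted p = 0.0903). All DKO samples lay below all controls in 17.9% of all genes tested as well. Orc6, the subunit least tightly held by the others, was at 686, 565 and 515 in DKO samples, against 717, 676 and 694 in Ctrl samples (log2 fold change -0.25, SE 0.10, limma adjusted p = 0.132). DKO replicate 1 overlapped the controls, and without it Orc6 passed the test (limma adjusted p = 0.0245).

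Orc1, the subunit that is degraded after G1 in mammalian cells, had the lowest values of the complex, at 91, 76 and 55 in DKO samples, against 106, 83 and 84 in Ctrl samples. Its groups overlapped and its 95% interval was wide, -0.77 to 0.14 on the log2 scale (limma adjusted p = 0.323). Orc2 was at 524, 456 and 471 in DKO samples, against 547, 527 and 487 in Ctrl samples (95% interval of the log2 fold change -0.30 to 0.09). Of the exon bases of Orc2, 29.8% also lie in exons of Nif3l1 on the opposite strand. Orc3 was at 1086, 995 and 937 in DKO samples, against 1183, 980 and 1073 in Ctrl samples (interval -0.30 to 0.10). Orc4 was at 1060, 1008 and 877 in DKO samples, against 1234, 1049 and 1024 in Ctrl samples (interval -0.38 to 0.05). The groups of Orc2, Orc3 and Orc4 overlapped, and the limma adjusted p was 0.457, 0.488 and 0.273. The lower ends of the 6 intervals lie at -0.77 to -0.30, so these data do not show that the ORC genes were unchanged.

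Cdt1 (mm10 chromosome 8, 122568015 to 122573554, plus strand), the factor that brings the MCM ring to ORC, fell most of the 44 genes. Its values were 461, 434 and 514 in DKO samples, against 724, 762 and 932 in Ctrl samples, a mean of 470 ± 40.7 in DKO and 806 ± 111 in Ctrl (SD, n = 3 each; log2 fold change -0.77, SE 0.11, limma adjusted p = 0.00176). The highest DKO sample was well under the lowest control. Gmnn encodes geminin, the inhibitor of CDT1, and fell as well, at 613, 577 and 558 in DKO samples, against 857, 784 and 901 in Ctrl samples (log2 fold change -0.54, SE 0.08, limma adjusted p = 0.00233). Cdc6, the ATPase that joins ORC to load the ring, fell by 0.60 (SE 0.12, limma adjusted p = 0.00976), to 66.6% of the control mean. The ratio of Cdt1 to Gmnn per kilobase of exon was 0.351, 0.351 and 0.430 in DKO samples, against 0.394, 0.454 and 0.483 in Ctrl samples, so that the groups overlapped. The ratio of Cdc6 to Orc3 was 0.339, 0.281 and 0.286 in DKO samples, against 0.384, 0.469 and 0.430 in Ctrl samples, with no overlap.

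The MCM ring, the motor of the helicase, fell as a whole: all 6 of its genes passed the test, with a median log2 fold change of -0.49. Mcm7 (minus strand of chromosome 5, 138164583 to 138172422) was at 1638, 1524 and 1475 in DKO samples, against 2253, 2363 and 2547 in Ctrl samples (log2 fold change -0.63, SE 0.07, limma adjusted p = 0.000776). Mcm2 was at 1642, 1566 and 1702 in DKO samples, against 2223, 2213 and 2588 in Ctrl samples (log2 fold change -0.51, SE 0.08, limma adjusted p = 0.0023). Mcm6 was at 1909, 1843 and 1771 in DKO samples, against 3040, 2338 and 2621 in Ctrl samples (log2 fold change -0.53, SE 0.09, limma adjusted p = 0.00447). In each of these 3 genes all DKO samples were below all controls. Mcm5, Mcm3 and Mcm4 fell too, with log2 fold changes of -0.47, -0.38 and -0.35. Mcm4 lost its call without DKO replicate 2 (limma adjusted p = 0.0537). Introns of Mcm7 host the microRNAs miR-25 and miR-93, whose genes share 3.9% of its exon bases on the same strand in the annotation.

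Of the 6 cofactors that complete or activate the helicase, 5 fell, with a median of -0.56. Cdc45, which joins the ring and GINS in the active helicase, was at 383, 311 and 330 in DKO samples, against 517, 519 and 581 in Ctrl samples (log2 fold change -0.66, SE 0.10, limma adjusted p = 0.00259). Mcm10, which acts as origins fire, was at 239, 196 and 213 in DKO samples, against 318, 344 and 330 in Ctrl samples (log2 fold change -0.62, SE 0.11, limma adjusted p = 0.00425). Gins1 was at 197, 172 and 174 in DKO samples, against 268, 256 and 306 in Ctrl samples (log2 fold change -0.61, SE 0.11, limma adjusted p = 0.00642). All 3 genes had separate groups and DKO means near 65% of control, at 63.3%, 65.3% and 65.4%.

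The 4 GINS genes, whose products form 1 complex, did not all pass the test. Gins2 and Gins3 fell, with log2 fold changes of -0.50 (SE 0.10) and -0.47 (SE 0.11), while Gins4 was at 352, 364 and 407 in DKO samples, against 408, 408 and 428 in Ctrl samples (log2 fold change -0.15, SE 0.09, limma adjusted p = 0.29). Its highest DKO sample was 1 unit below its lowest controls. Gins1 relative to Gins4, per kilobase of exon, was 0.498, 0.421 and 0.380 in DKO samples, against 0.585, 0.558 and 0.636 in Ctrl samples. This pair, chosen after the values were seen, sets the GINS gene that fell most against the one that changed least. The shifted ratio thus restates their fold changes. Gins3 lost its call without DKO replicate 2 or 3 or Ctrl replicate 1 or 2 (highest limma adjusted p = 0.0584). For Gins2, 67.3% of its exon bases also lie in exons of Gse1 on the opposite strand, and Gse1 had a log2 fold change of -0.15 (limma adjusted p = 0.259).

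**Figure D3:**
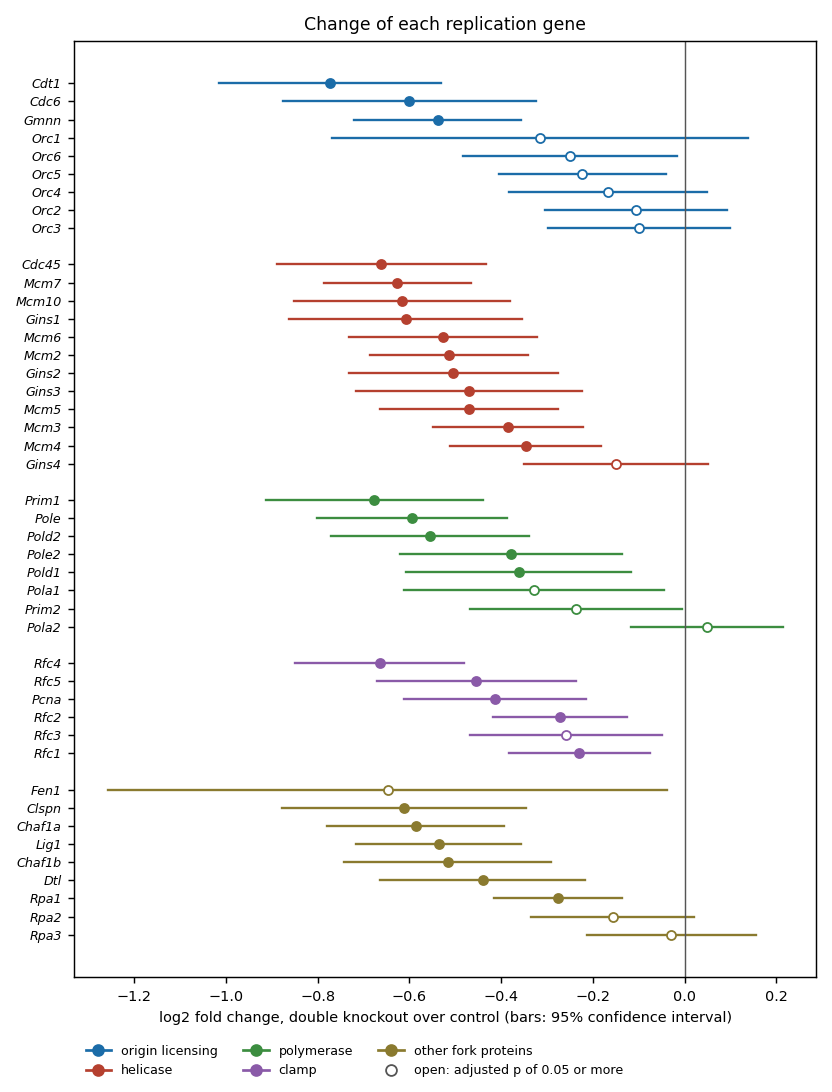
Log2 fold change, DKO over Ctrl, of each of the 44 genes (x axis) with its 95% confidence interval from limma, grouped by role. Filled points passed an adjusted p of 0.05. The ORC genes, Gins4, Pola1, Pola2, Prim2, Rfc3, Rpa2, Rpa3 and Fen1 are open, and Fen1 and Orc1 have the widest intervals.

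Among the 8 polymerase genes 5 fell, and the subunits of polymerase alpha and primase differed in the size of their change. Prim1 (chromosome 10, 128015168 to 128030037, plus strand), the catalytic subunit of primase, was at 493, 449 and 387 in DKO samples, against 739, 638 and 743 in Ctrl samples (log2 fold change -0.68, SE 0.11, limma adjusted p = 0.0028). Its partner Prim2 was at 201, 188 and 214 in DKO samples, against 240, 228 and 242 in Ctrl samples (log2 fold change -0.24, SE 0.10, limma adjusted p = 0.15). Pola1, the catalytic subunit of polymerase alpha, was at 378, 349 and 275 in DKO samples, against 459, 386 and 406 in Ctrl samples (log2 fold change -0.33, SE 0.13, limma adjusted p = 0.107). The groups of Prim2 and Pola1 were separate, though neither passed the test.

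Pola2 (chromosome 19, 5940542 to 5964202, minus strand), the regulatory subunit, was at 760, 790 and 786 in DKO samples, against 710, 753 and 798 in Ctrl samples. Its groups overlapped and its 95% interval was -0.12 to 0.21 (limma adjusted p = 0.704). The ratio of Prim1 to Pola2 per kilobase was 1.39, 1.22 and 1.06 in DKO samples, against 2.23, 1.82 and 2.00 in Ctrl samples. The groups did not overlap in this ratio. The pair was chosen after the values were seen and sets the subunit that fell most against the one that did not fall. The shifted ratio thus restates their fold changes.

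Of polymerases delta and epsilon, which extend the strands, the 4 genes among the 44 all fell, with a median of -0.47, and their other subunits are given with the further partners below. Pole (chromosome 5, 110286306 to 110337474, plus strand), the catalytic subunit of the leading-strand polymerase, was at 405, 386 and 373 in DKO samples, against 643, 531 and 589 in Ctrl samples (log2 fold change -0.59, SE 0.09, limma adjusted p = 0.00277). Pold2, an accessory subunit of polymerase delta, was at 704, 666 and 638 in DKO samples, against 868, 982 and 1115 in Ctrl samples (log2 fold change -0.56, SE 0.10, limma adjusted p = 0.00447). Pold1 and Pole2 changed by -0.36 and -0.38, close to the threshold (limma adjusted p = 0.0489 and 0.0392). Pole2 lost its call without any 1 sample, and Pold1 without any 1 sample other than Ctrl replicate 1. Each was called in 6 of the 15 alternatives, and not with no filter, equal totals or embryo sex as a term. The count of 5 polymerase genes was 3 without DKO replicate 1, 2 or 3 and without Ctrl replicate 2 or 3, and also 3 with values scaled to equal totals or with embryo sex as a term. Prim1, Pole and Pold2 kept their calls in each of the 15 alternatives.

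Of the clamp and its 5 loader genes, 5 of 6 fell, with a median of -0.34, and the loader subunits differed in size of change. Rfc4 (minus strand of chromosome 16, 23113943 to 23127737) was at 383, 345 and 358 in DKO samples, against 557, 592 and 573 in Ctrl samples (log2 fold change -0.66, SE 0.08, limma adjusted p = 0.00109). Rfc5 was at 530, 434 and 485 in DKO samples, against 623, 641 and 719 in Ctrl samples (log2 fold change -0.45, SE 0.10, limma adjusted p = 0.0116). Pcna, the clamp, was at 2681, 2226 and 2084 in DKO samples, against 3095, 3007 and 3157 in Ctrl samples (log2 fold change -0.41, SE 0.09, limma adjusted p = 0.012). All DKO samples were below all controls in these 3 genes, and DKO replicate 1 was the highest of its group in each. The annotation names 2 Pcna pseudogenes, Pcna-ps1 and Pcna-ps2, which could share reads with Pcna.

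Rfc2 changed by -0.27 and Rfc1, the large subunit, by -0.23 (limma adjusted p = 0.0194 and 0.0455). Rfc3 was at 440, 388 and 361 in DKO samples, against 480, 477 and 461 in Ctrl samples (log2 fold change -0.26, SE 0.09, limma adjusted p = 0.0893). Rfc3 and Rfc1 thus had changes of like size on either side of the threshold. The ratio of Rfc4 to Rfc1 per kilobase was 1.29, 1.17 and 1.33 in DKO samples, against 1.62, 1.81 and 1.68 in Ctrl samples. Calls in the clamp group other than that of Rfc4 depended on single samples. The count of 5 was 1 without DKO replicate 2, where Rfc4 alone passed, and 3 without Ctrl replicate 2 or without Ctrl replicate 3. Rfc1 lost its call without any 1 sample and in all but 4 of the 15 alternatives, limma-voom and equal totals among them. Rfc2 lost its call without DKO replicate 2 or Ctrl replicate 2 or 3, and Rfc3 gained one without DKO replicate 1 (limma adjusted p = 0.0454).

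The 3 subunits of replication protein A (RPA), which coats single-stranded DNA, had smaller changes. Rpa1, the large DNA-binding subunit, was at 2189, 1990 and 2035 in DKO samples, against 2478, 2508 and 2534 in Ctrl samples (log2 fold change -0.28, SE 0.06, limma adjusted p = 0.0148). Rpa2 was at 760, 677 and 680 in DKO samples, against 743, 814 and 801 in Ctrl samples (log2 fold change -0.16, SE 0.08, limma adjusted p = 0.211). Rpa3 was at 475, 462 and 448 in DKO samples, against 499, 447 and 468 in Ctrl samples (log2 fold change -0.03, SE 0.08, limma adjusted p = 0.85). The groups were separate for Rpa1 and overlapped for Rpa2 and Rpa3. The sign of Rpa3 turned with equal totals, and Rpa1 lost its call without DKO replicate 2 or Ctrl replicate 2 (highest limma adjusted p = 0.0867). Rpa1 relative to Rpa3, per kilobase, was 0.939, 0.877 and 0.925 in DKO samples, against 1.01, 1.14 and 1.10 in Ctrl samples.

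Okazaki fragments are trimmed by the nuclease FEN1 and sealed by DNA ligase 1. Lig1 was at 1049, 914 and 980 in DKO samples, against 1404, 1330 and 1534 in Ctrl samples (log2 fold change -0.54, SE 0.08, limma adjusted p = 0.0023), with separate groups. Fen1 was at 19, 19 and 27 in DKO samples, against 27, 31 and 47 in Ctrl samples (log2 fold change -0.65, SE 0.27, limma adjusted p = 0.136). It had the lowest values of the 44 genes, and its groups touched at 27. In the annotation 84.2% of the exon bases of Fen1 also lie in exons on the opposite strand, of Tmem258 and Gm10143, so its low level is uncertain. Tmem258 averaged 1024 in DKO samples and 1078 in Ctrl samples.

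Chromatin assembly factor 1 (CAF-1), which places histones on new DNA behind the fork, fell in Chaf1a and Chaf1b, its 2 genes among the 44. Chaf1a was at 383, 368 and 372 in DKO samples, against 520, 565 and 605 in Ctrl samples (log2 fold change -0.59, SE 0.09, limma adjusted p = 0.00218). Chaf1b was at 296, 274 and 276 in DKO samples, against 388, 375 and 452 in Ctrl samples (log2 fold change -0.52, SE 0.10, limma adjusted p = 0.00759). For Chaf1a, 52.5% of the exon bases also lie in exons of Ubxn6 on the opposite strand, and Ubxn6 averaged 1254 in DKO samples and 1250 in Ctrl samples. Rbbp4, a histone-binding subunit that CAF-1 shares with other complexes, did not pass the test, at 5045, 4750 and 5036 in DKO samples, against 5302, 5347 and 5523 in Ctrl samples (log2 fold change -0.13, SE 0.06, limma adjusted p = 0.179).

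Dtl and Clspn, which act on moving forks, fell too. Dtl encodes the receptor that directs CDT1 to destruction on chromatin-bound PCNA, and was at 580, 482 and 466 in DKO samples, against 743, 658 and 666 in Ctrl samples (log2 fold change -0.44, SE 0.10, limma adjusted p = 0.0152). Clspn encodes claspin, a mediator of the replication checkpoint, and was at 412, 407 and 307 in DKO samples, against 599, 535 and 575 in Ctrl samples (log2 fold change -0.61, SE 0.12, limma adjusted p = 0.00759). Both had separate groups. Dtl lost its call without DKO replicate 2 or DKO replicate 3 (highest limma adjusted p = 0.0682).

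**Figure D4:**
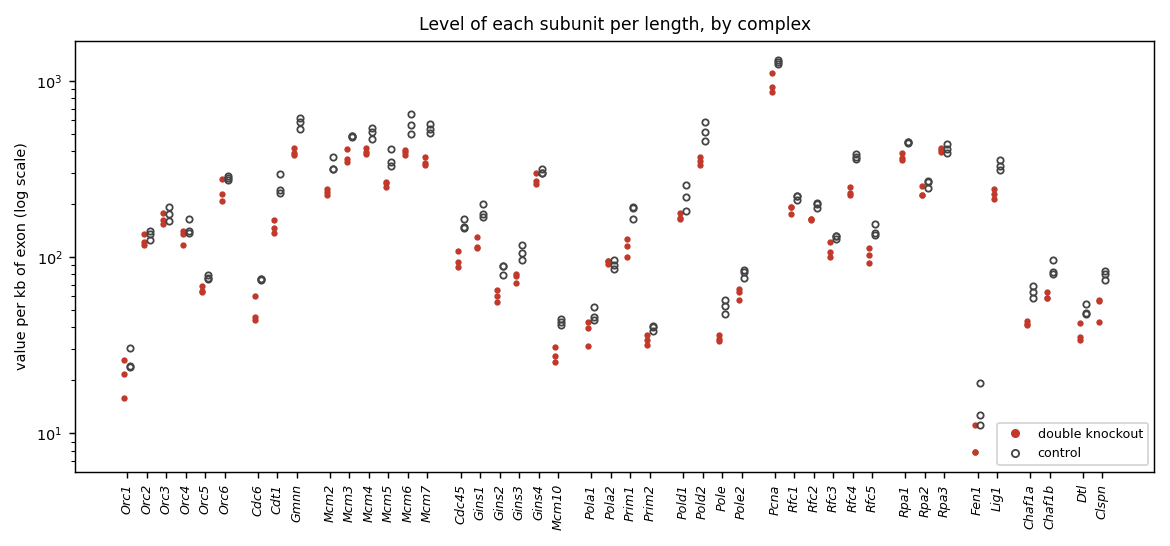
Level of each gene as value per kilobase of annotated exon (y axis, log scale), by complex, with 3 filled DKO points left of 3 open Ctrl points. Pcna is the highest and Fen1 the lowest, and the MCM ring genes lie within a narrow range of one another in both groups.

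Levels between genes were compared per kilobase of annotated exon, which understates genes with long rare transcripts. Pcna was the highest, at a mean of 971 in DKO samples and 1290 in Ctrl samples. The MCM ring genes averaged 235 to 400 per kilobase in DKO samples and 337 to 571 in Ctrl samples. Orc1 was the lowest of its complex, at 21.3 in DKO samples and 26.2 in Ctrl samples, and Orc6 the highest, at 238 in DKO samples and 282 in Ctrl samples. Mcm2, the lowest ring gene, was thus level with Orc6 in DKO samples and above it in Ctrl samples, and both were above the other 5 ORC genes. The ratio of Mcm7 to Mcm4, neighbours in the ring, was 0.887, 0.869 and 0.861 in DKO samples, against 0.937, 1.14 and 1.11 in Ctrl samples. The ratios between genes were chosen after the values were seen and are given with no test. Most pairs set a gene with a larger fall against a partner with a smaller change, so a shifted ratio restates the fold changes.

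Set side by side, the median log2 fold change was -0.51 for the 12 helicase genes (11 fell), -0.37 for the 8 polymerase genes (5 fell), -0.34 for the 6 clamp and loader genes (5 fell), -0.25 for the 9 licensing genes (3 fell) and -0.52 for the 9 other fork genes (6 fell). Within licensing, the 6 ORC genes had a median of -0.19 and the 3 loading genes, with geminin, -0.60. In DKO replicates 1, 2 and 3 the ORC median relative to the control mean was -0.01, -0.17 and -0.30, against 0.11, -0.05 and -0.05 in Ctrl replicates 1, 2 and 3. The helicase medians were -0.46, -0.55 and -0.53 in the DKO replicates, against -0.05, -0.04 and 0.05 in the Ctrl replicates. Without DKO replicate 3 the ORC median was -0.10 and the licensing median -0.16, and without DKO replicate 1 the licensing median was -0.37. The difference between subgroups was not tested.

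Other genes of replication, 59 on 6 lists, were examined in the same fit: 31 fell, 1 rose and 27 did not pass the test, with a median of -0.34. Over all genes tested 8.56% fell and 8.61% rose, so 1 rise in 59 is under that share. The count of 31 was 20 without DKO replicate 2. Of 8 genes on the list of S-phase kinases and cyclins, which also holds the phosphatase gene Cdc25a, 6 fell. They included Ccna2, the cyclin of S phase, with a log2 fold change of -0.93 (SE 0.07), Cdk1 with -0.53 (SE 0.07) and Dbf4, the activator of the kinase CDC7, with -0.51 (SE 0.09). Ccna2 averaged 2365 ± 142 in DKO samples and 4495 ± 252 in Ctrl samples (SD, n = 3 each). It was the largest change on the 6 lists.

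Of 16 genes of origin firing and the replisome 8 fell. Ticrr, which helps load CDC45, was at 219, 221 and 207 in DKO samples, against 388, 341 and 351 in Ctrl samples (log2 fold change -0.73, SE 0.10, limma adjusted p = 0.0014). Rnaseh2b, a subunit of the enzyme that removes ribonucleotides from DNA, had a log2 fold change of -0.57 (SE 0.09) and Wdhd1, which links polymerase alpha to the helicase, of -0.49 (SE 0.10). Of 9 genes of deoxynucleotide supply 6 fell, among them Rrm2 with a log2 fold change of -0.65 and Rrm1 with -0.61 (SE 0.07 each), the subunits of ribonucleotide reductase, and Dut, which removes dUTP, with -0.42 (SE 0.07). Of 9 genes of histone supply and chromatin replication 4 fell, among them the histone chaperones Asf1b with -0.64 (SE 0.08) and Nasp with -0.66 (SE 0.09) and Uhrf1, which guides maintenance DNA methylation, with -0.64 (SE 0.09). Of 8 checkpoint genes 3 fell, the kinases Chek1 with -0.57 (SE 0.10) and Wee1 with -0.36 (SE 0.08) and the clamp subunit Hus1 with -0.36 (SE 0.10). Hus1 lost its call with no filter, with equal totals, with embryo sex as a term and without DKO replicate 2 or 3 or Ctrl replicate 1 or 2, and Wee1 without DKO replicate 2 or 3 or Ctrl replicate 2.

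Among 9 further partners of the complexes above, 4 fell and 1 rose. Mcm8, a helicase relative of the ring genes, had a log2 fold change of -0.58 (SE 0.11), Pole4, a small subunit of polymerase epsilon, of -0.39 (SE 0.08) and Mcmbp, which binds MCM proteins, of -0.29 (SE 0.07). Mcmbp lost its call without DKO replicate 2 or Ctrl replicate 3. Pold3, a subunit of polymerase delta, changed by -0.32 (SE 0.09, limma adjusted p = 0.0392), and was called in 7 of the 15 alternatives. Pole3, a histone-fold subunit of polymerase epsilon, was at 925, 852 and 795 in DKO samples, against 909, 801 and 878 in Ctrl samples, with groups that overlapped (log2 fold change -0.01, SE 0.08, limma adjusted p = 0.954). Pold3, Pole3 and Rbbp4 were named after their values were seen, to complete their complexes. Pold4, the smallest subunit of polymerase delta, was at 252, 243 and 247 in DKO samples, against 186, 188 and 205 in Ctrl samples (log2 fold change 0.36, SE 0.10, limma adjusted p = 0.0367). Its DKO samples all lay above all controls, which held for 17.5% of all genes tested. The change of Pold4 was opposite in direction to Pold1 and Pold2. Of the exon bases of Pold4, 24.6% also lie in exons of AC109138.7 on the same strand. Its call was lost with no filter, with embryo sex as a term and without any 1 sample (highest limma adjusted p = 0.103).

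**Figure D5:**
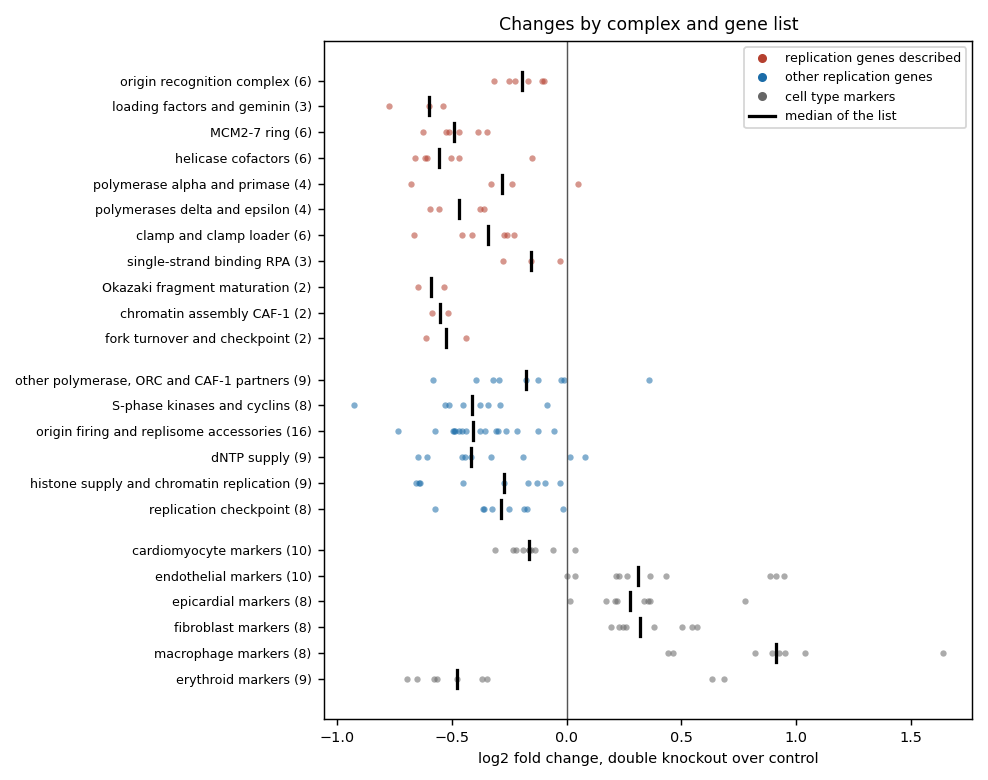
Log2 fold change, DKO over Ctrl (x axis), of each gene on each list, with the number of genes in brackets and a bar at the list's median. The replication lists lie mostly left of 0, with Pold4 at 0.36 to the right, and the macrophage, endothelial, fibroblast and epicardial markers lie to the right, at medians of 0.91, 0.31, 0.32 and 0.28.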

How the data were processed

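Groups were taken from the genotype labels. The deposited file is a table of whole numbers, treated here as a score: the spacing of its low values shows that the authors scaled the reads counted for each gene by sample and rounded the outcome, and no header states a unit. The submitters' processing notes name mm10, featureCounts 1.5.0, STAR 2.4.2a, Trimmomatic, DESeq and DESeq2. Their roles, and whether counting used strand, are not given in the sources used here. Depth was estimated from the step between low values.

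limma 3.58.1 in R 4.3.3, with a variance trend, was run on log2(value + 1) for the 15556 genes with a mean of at least 10, with group as the only term. It understates changes of low genes. Scripts were tested on simulated data. Count models were not used because the values are not counts. Alternatives were pseudocounts of 0.1 and 10, no filter, at least 50 in each of 3 samples, limma-voom on estimated reads, equal totals, quantile normalization, a replicate block, embryo sex as a term and leaving out each sample. Sex was read from sex-linked transcripts.

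The genes and lists were chosen with earlier results of these data known. Values per sample are given for each gene of the 44 that did not pass, for the 2 with the smallest p in each of 11 complexes (3 in those of 6), and for further genes where used; on other lists up to 3 genes that passed, and those that rose, are named. Exon lengths, overlaps and gene coordinates come from GENCODE M21 on mm10.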

Additional observations from a re-analysis of the deposited data

How the results depend on the processing

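The 44 genes kept their direction in each alternative except Rpa3, whose log2 fold change of -0.03 was 0.0018 with equal totals and -0.066 to 0.013 without each sample, above 0 without Ctrl replicate 1. With no filter on low values, which tests 26986 genes, 1755 genes were called in all, of which 846 were higher, against 2670 and 1339. With equal totals 1569 genes were higher and 1091 lower. Leaving out each sample, the ranges were 1319 to 2371 genes called, 619 to 1237 higher and 700 to 1225 lower. The polymerase count of 5 was 3 with no filter, with sex as a term and with equal totals, and 3 to 4 without each sample; the clamp count was 1 to 5 and the ORC count 0 to 1 without each sample. On the other replication lists 20 to 30 genes fell without each sample. Their 1 rise was 0 with no filter, with sex as a term and without each sample in turn (0 to 0). Leaving out each sample, the clamp median was -0.43 to -0.31 and that of the other fork genes -0.57 to -0.44, the ORC median -0.22 to -0.10 and the licensing median -0.37 to -0.16. Other counts of the 44 genes that fell were 27 to 31.

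Replicate numbers do not mark a shared batch in the labels, and same-numbered samples did not deviate together (correlations of -0.04, -0.37 and 0.05). With the replicate block 3530 genes were called and 31 of the 44 fell, Pola1 being the addition (limma adjusted p = 0.046). Fen1 could not be tested with at least 50 in each of 3 samples. The cause of these changes was not tested. Low values such as those of Fen1 and Orc1 rest on few reads, and their intervals are the widest of the 44 genes.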

Other observations

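Genes that act around the fork but are not part of it were read from the same limma fit, on lists chosen after the values of the 44 genes had been seen. Of 11 genes of cohesin, the ring that holds sister chromatids together, and its regulators, 4 fell, with a median log2 fold change of -0.13. Over all genes tested 8.56% fell. Esco2, the acetyltransferase that establishes cohesion in S phase, was at 559, 505 and 419 in DKO samples, against 912, 786 and 767 in Ctrl samples (log2 fold change -0.74, SE 0.11, limma adjusted p = 0.00267). Rad21, the subunit that closes the ring, was at 5541, 5175 and 4915 in DKO samples, against 7634, 7094 and 7416 in Ctrl samples (log2 fold change -0.50, SE 0.07, limma adjusted p = 0.00138). Both had separate groups and kept their calls in each of the 15 alternatives. Cdca5, which encodes sororin, and Smc1a changed by -0.51 and -0.21; Cdca5 lost its call with no filter and without DKO replicate 2 or Ctrl replicate 2 or 3, and Smc1a without any 1 sample other than DKO replicate 1 and with no filter, equal totals, quantile normalization or embryo sex as a term.

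Of 7 topoisomerase and RecQ helicase genes 2 fell, where 8.56% of all genes tested did. Top2a, the topoisomerase of dividing cells, was at 4026, 3686 and 3591 in DKO samples, against 6366, 5844 and 5693 in Ctrl samples (log2 fold change -0.66, SE 0.07, limma adjusted p = 0.000626), and Blm, a helicase that resolves joined DNA strands, changed by -0.50 (SE 0.10). The median of this list was -0.06. Of 8 genes of translesion synthesis, the copying of damaged DNA, 1 fell. This gene, Polq, fell by 0.46 (SE 0.12, limma adjusted p = 0.0305). It lost that call with no filter and without any 1 sample other than DKO replicate 1. A count of 1 in 8 is near the 8.56% of all genes tested that fell. The median of this list was -0.15.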
